A study of Mus musculus with 6 samples.

Results

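The comparison described here is the step from long-term haematopoietic stem cells (LT-HSC) to short-term haematopoietic stem cells (ST-HSC) in mice with an Idh1 knock-in allele (KI), read as DNA methylation. It used 2 of the 6 libraries of the series, KI LT-HSC and KI ST-HSC. Its members are the autosomal cytosine positions of CpG sites with at least 10 reads in both libraries, 726237 in all, and the 1 kb windows that hold at least 5 of them, 30837 in all. KI mice were IDH1+/lsl VavCre+, so the knock-in allele was carried on 1 of the gene copies and switched on by Cre recombinase under the blood-cell promoter Vav. Control mice were IDH1+/+ VavCre+ littermates, which carried the same Cre without the knock-in allele. All were male C57BL/6 mice aged 7 to 10 months, and bone marrow cells of 6 mice per group were sorted by surface markers. Both stem cell types were lineage negative, Sca positive, Kit positive and CD150 positive. CD48 separated them, being absent on LT-HSC and present on ST-HSC. The KI multipotent progenitors (MPP), which lack CD150, and the Control libraries serve below as side values.

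LT-HSC can rebuild blood for the life of a recipient, whereas ST-HSC do so for a limited time and stand next to them on the way to progenitors. Methyl groups on CpG cytosines are written by DNMT enzymes and are removed through oxidation by TET enzymes, which need the product of normal IDH1 as a cofactor. Mutant IDH1 makes a related metabolite that inhibits TET enzymes, and IDH mutations in leukaemia are known for going with high DNA methylation. The comparison asks how methylation differs between the first pair of stem cell states in marrow that carries the knock-in allele. A methylation level here is the percent of reads with an unconverted C, averaged over the cells of a pool and over both alleles, so more methylated cells and more methylation per cell cannot be told apart. Methylation of a region does not give the expression of its gene. Of the genes whose proteins were sorted on, Slamf1 (CD150), Cd48 and Ly6a (Sca) had 0 positions at the gene start and Kit stayed near 4% in both libraries, so the tables do not check the sort.

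The KI LT-HSC library was deeper, with 53884467 reads over 854387 positions, against 38284759 reads over 1040407 positions in KI ST-HSC. At the positions of the pair the median coverage was 52 reads in LT-HSC and 30 in ST-HSC. The deposited names place KI LT-HSC on lane 7 and KI ST-HSC on lane 3, so lane and cell type cannot be told apart. Both Control stem cell libraries were on lane 6, so the KI step crosses lanes and the Control step does not. There was 1 pooled library on each side and no replicate. Every call below therefore compares 2 libraries, not 2 conditions, and its p-value covers the counting of reads only. One measure of the error within a library came from the 2 strands of the same CpG. Of 100457 CpGs read on both strands, 1.73% differed between strands within KI LT-HSC and 0.671% within KI ST-HSC by the rule for single positions (two-sided Fisher exact test, adjusted p under 0.01 and at least 25 percentage points). Over all positions, that rule called 3347 higher in ST-HSC than in LT-HSC, 0.461% of those tested, and 1372 lower, 0.189%. Of the CpGs read on both strands, 0.604% were called between the 2 cell types on the forward strand and 0.584% on the reverse strand. Among these CpGs, 28 were called higher in ST-HSC on both strands, 8 lower on both, 4 in opposite directions and 1106 on 1 strand only. A call at a single position was thus rarer than a disagreement between strands within the LT-HSC library, and the results below are given for windows and gene starts.

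A set of 4 short stretches before gene starts show what a difference looks like at the level of bases. They were picked after their values were seen, 3 from the gene starts that rose most and 1 from those that fell. Each line gives the 250 bases before a transcription start, from RefSeq (GRCm38.p6, the build of mm10), 5′ to 3′ on the strand of the gene. Capitals mark CpGs measured in both KI libraries.
Akr1b8: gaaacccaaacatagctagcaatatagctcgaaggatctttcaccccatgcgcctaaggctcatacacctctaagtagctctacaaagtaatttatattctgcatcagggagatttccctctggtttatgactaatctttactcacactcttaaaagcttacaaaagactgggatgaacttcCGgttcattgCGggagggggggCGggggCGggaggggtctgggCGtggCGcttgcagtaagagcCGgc
Tubb4a: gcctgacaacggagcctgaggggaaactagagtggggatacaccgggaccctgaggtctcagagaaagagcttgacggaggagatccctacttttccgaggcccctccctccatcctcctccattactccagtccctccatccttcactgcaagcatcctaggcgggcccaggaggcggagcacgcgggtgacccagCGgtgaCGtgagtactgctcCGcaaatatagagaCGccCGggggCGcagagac
Acot11: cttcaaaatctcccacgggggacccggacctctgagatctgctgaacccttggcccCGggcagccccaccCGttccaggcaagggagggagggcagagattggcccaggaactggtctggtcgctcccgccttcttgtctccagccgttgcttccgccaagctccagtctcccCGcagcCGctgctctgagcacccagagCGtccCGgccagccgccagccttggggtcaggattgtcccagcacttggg
Commd1: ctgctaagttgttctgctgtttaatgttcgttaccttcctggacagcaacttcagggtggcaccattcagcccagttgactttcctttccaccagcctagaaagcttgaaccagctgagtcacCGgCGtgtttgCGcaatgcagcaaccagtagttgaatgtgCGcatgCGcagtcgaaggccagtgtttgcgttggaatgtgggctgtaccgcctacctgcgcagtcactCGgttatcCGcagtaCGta
The Akr1b8 stretch lies at chr6:34353896-34354145 on the plus strand, and Akr1b8 encodes an aldo-keto reductase. Its 11 measured positions, on 7 of 9 CpGs, were higher in ST-HSC in 11 of 11 cases. Levels ran from 3.30% to 46.5% in LT-HSC and from 17.5% to 79.4% in ST-HSC. The CpG 4 bases before the start stood at 16.2% of 80 reads in LT-HSC and 65.9% of 126 reads in ST-HSC. The CpG 68 bases before the start moved less, from 7.53% of 93 reads to 17.5% of 80 reads. The Tubb4a stretch lies at chr17:57087601-57087850 on the minus strand, before a beta-tubulin gene. Its 7 positions were all higher in ST-HSC, with levels of 20.6% to 70.4% in LT-HSC and 80% to 90.9% in ST-HSC. Those on the forward strand had 27 reads each in LT-HSC and only 10 or 11 in ST-HSC. Those on the reverse strand had 33 or 34 reads in LT-HSC and 25 in ST-HSC. Positions on a strand lie close enough to share reads, so they are not separate measurements. The Acot11 stretch lies at chr4:106805008-106805257 on the minus strand, before the gene of an acyl-CoA thioesterase. The 4 CpGs between 77 and 45 bases before its start were at 0%, 0%, 0% and 20% in LT-HSC and at 60%, 68%, 68% and 72% in ST-HSC. The pair of CpGs farther upstream showed no such step, with 26.1% and 13.04% in LT-HSC and 16.7% at both in ST-HSC. These 4 CpGs had 33 to 36 reads each in LT-HSC and 25 each in ST-HSC, and they lie close enough to share reads, so they are not separate measurements. The Commd1 stretch lies at chr11:22972867-22973116 on the minus strand. Commd1 takes part in copper handling and NF-kappa-B control, and the start shown is an alternative one. Its 9 positions were all lower in ST-HSC, from a mean of 38.1% to a mean of 19.7%. The largest single difference was -23.9 points, short of the 25 points of the rule for single positions. Here and in the Akr1b8 stretch, neighbouring positions on a strand also lie close enough to share reads, so they are not separate measurements.

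Across all positions of the pair, ST-HSC were slightly more methylated than LT-HSC. The unweighted mean level stood at 23.8% for LT-HSC and 24.5% for ST-HSC, a difference of 0.772 percentage points. The difference was positive on all 19 autosomes, from 0.552 points on chromosome 13 to 0.961 on chromosome 12. Positions at least 10 points higher in ST-HSC made up 9.92% of the total, and positions at least 10 points lower 6.85%. With each position weighted by its reads, the levels were 18% in LT-HSC and 23.3% in ST-HSC, a difference of 5.26 points. The direction was the same under both weightings and the size was not, so the mean depends on how deeply read positions are counted.

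The gain per position was largest where CpGs were neither empty nor full. Positions between 20% and 80% made up 7.81% of the pair in LT-HSC and 9.83% in ST-HSC, while those under 20% fell from 72.9% to 70.9% and those over 80% stayed at 19.3%. Of the positions under 20% in LT-HSC, 5.78% were between 20% and 80% in ST-HSC. Complete switches were rare, with 240 positions going from under 20% to over 80% and 111 the other way. Where positions were sorted by their mean level in the Control LT-HSC and ST-HSC libraries, which the KI comparison does not use, ST-HSC exceeded LT-HSC in KI by 0.411 points under 5%, by 2.53 points between 5% and 20% and by 3.94 points between 20% and 80%. Between 80% and 95% the mean fell by 0.698 points, and above 95% it fell by 0.681 points. In this sort, partly methylated CpGs gained and nearly full ones lost a little. On the 626163 positions also covered in both Control libraries, the KI difference was 0.795 points and the Control difference between ST-HSC and LT-HSC was -0.293 points. Sorted by the level in KI MPP, positions between 20% and 80% differed by 4.08 points in KI and by -0.304 points in Control. In that sort KI positions between 80% and 95% were 0.446 points higher in ST-HSC and those above 95% differed by -0.408 points, so the direction between 80% and 95% depends on the sort. With single libraries on all sides, the difference between genotypes could not be set against a spread between pools and was not tested.

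Windows of 1 kb were called where the summed reads differed at an adjusted p under 0.01 (two-sided Fisher exact test, Benjamini-Hochberg adjustment over all windows) and the mean level differed by at least 10 percentage points. In KI, 783 windows were called higher in ST-HSC, 2.54% of those tested, and 306 were called lower, 0.992%. Called rises had a median of 16.0 points and reached 61.5 points, with 255 of at least 20 points and 35 of at least 40. In called falls the median level fell by 14.1 points, with 62 of at least 20 points and 1 of at least 40. Rises were thus more frequent than falls and more often large. Of the higher windows, 644 had at least 2 positions on each strand, and 338 of these were at least 10 points higher on both strands. Of 214 such lower windows, 77 were at least 10 points lower on both.

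**Figure D1:**
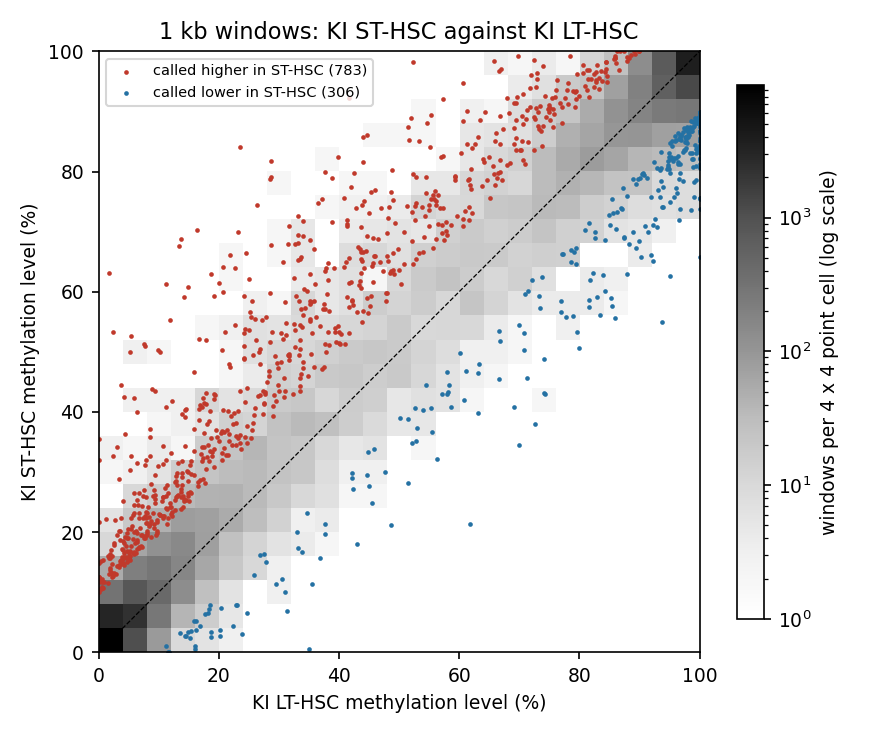
Mean methylation level (%) of each 1 kb window in KI LT-HSC (x axis) and KI ST-HSC (y axis). Grey squares count all 30837 windows on a log scale, red points are the 783 windows called higher in ST-HSC and blue points the 306 called lower, and the dashed line marks equal levels. Red points spread over the whole range of LT-HSC levels, whereas blue points gather where LT-HSC were nearly full.

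Called windows lay away from gene starts. Of the windows that could be placed, which excludes chromosome 18, 45.2% of those tested overlapped a region around a gene start, against 22.3% of the higher windows and 14.3% of the lower ones. Gene bodies held 41.0% of the windows tested, 58.9% of the higher and 59.2% of the lower windows. The median distance to the nearest start was 2150 bases for tested windows, 8118 bases for higher ones and 14712 bases for lower ones. Position in the genome goes with starting level, since windows at gene starts had a median of 2.77% in LT-HSC and windows in gene bodies 51.6%. Among windows whose Control mean lay between 10% and 90%, the shares called higher were 12.8% at gene starts, 14.6% in gene bodies and 10.1% between genes. In the whole set these shares were 1.26%, 3.64% and 3.46%. The share at gene starts was thus the lowest in the whole set, but lay between those of the other locations within this range. Levels within the range were not matched, with LT-HSC medians of 23.2% at gene starts, 56.6% in gene bodies and 62.7% between genes. Of the 4164 windows in that range of Control levels, 13.1% were called higher and 3.70% lower. Below 10% the shares were 0.627% and 0.140%, and above 90% they were 0.475% and 1.10%, the only one of the 3 ranges in which falls outnumbered rises. Windows with few positions were called more often in both directions, and all 306 falls came from windows with fewer than 20 positions. Windows with 20 to 39 positions held 61 rises and 0 falls, and those with at least 40 positions held 12 rises and 0 falls. These counts come from the same Fisher exact test. The number of positions goes with the starting level. The median LT-HSC level was 87.9% in windows with 5 to 9 positions. It was 2.86% in those with 20 to 39 and 2.39% in those with at least 40, so most of these could not fall by 10 points.

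**Figure D2:**
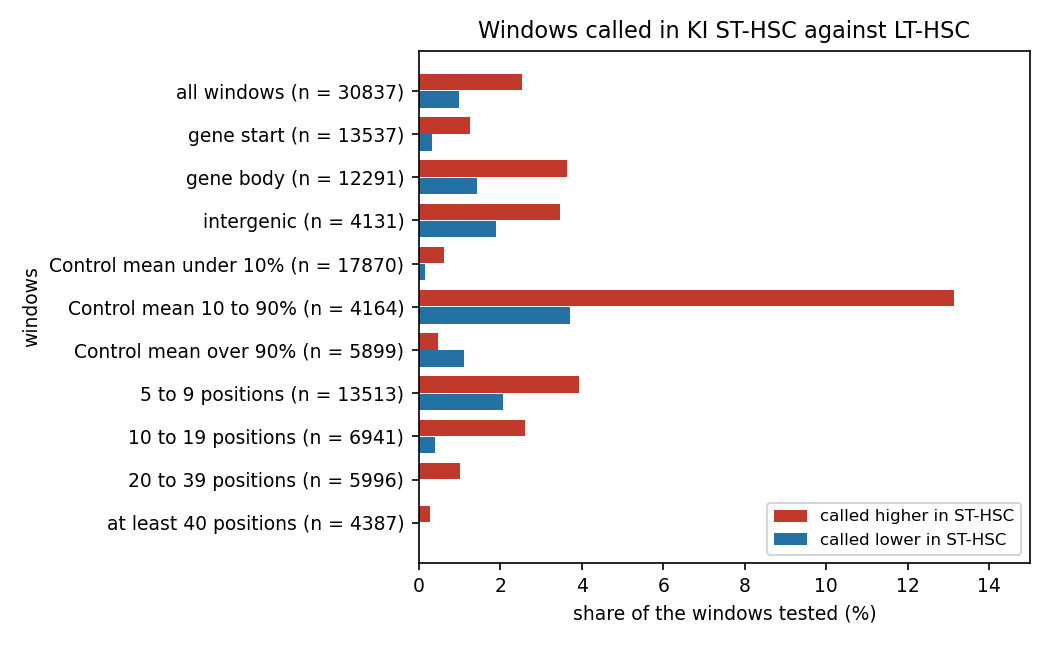
Share (%) of the 1 kb windows tested that were called higher (red) or lower (blue) in KI ST-HSC, by location, by mean level in the Control LT-HSC and ST-HSC libraries and by the number of measured positions, with the number of windows in brackets. The red bar for Control means of 10 to 90% reaches 13.1%, against 2.54% over all windows.

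The largest rises by window fell in and near genes of varied function. Windows were named for the 10 largest changes each way among those with at least 100 reads in each library and at least 80% of positions moving one way, so their size is a description of the choice. Within the body of Rad51b, a gene of homologous recombination repair, the window chr12:79600001-79601000 went from 23.5% in KI LT-HSC to 84.0% in KI ST-HSC over 6 positions, and stood at 93.9% in KI MPP. The same window was at 28.7% in Control LT-HSC and 61.7% in Control ST-HSC. A window in Morn1 (chr4:155116001-155117000) went from 2.44% to 53.3% over 5 positions, with 71.1% in KI MPP, whereas both Control stem cell libraries were near 30% (29.3% and 33.1%). A window in Epha2, which encodes an ephrin receptor kinase (chr4:141312001-141313000), went from 18.7% to 63.0%, with 62.8% in KI MPP. Epha2 was at 18.1% and 15.4% in the Control stem cells. A window in Prkce, the gene of protein kinase C epsilon (chr17:86254001-86255000), went from 52.4% to 98.1%. The other named rises, nearest to or in Mrpl1, Carmil1, Dars and Gm41362, ran from 46.8 to 54.2 points. The window nearest to Dars was read on 1 strand only, and that in Carmil1 rose by 78.4 points on the forward and 8.64 points on the reverse strand.

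The largest falls were smaller and began from high levels. A window in Tapt1, a gene needed for skeletal development (chr5:44223001-44224000), went from 93.8% in KI LT-HSC to 55.0% in KI ST-HSC over 5 positions, with 74.2% in KI MPP. A window in Tmc8, a gene of a membrane channel family (chr11:117792001-117793000), went from 72.6% to 38.1% over 10 positions and differed by -35.6 points on the forward and -33.5 points on the reverse strand. Control stem cells had 37.9% in LT-HSC and 15.8% in ST-HSC at Tmc8. A window in Dclk1, a microtubule-linked kinase (chr3:55347001-55348000), went from 85.9% to 55.6%, whereas Control had 45.4% and 50.3%. Jph2, C1d, Supt4a and 2900026A02Rik gave other named falls, with differences of -27.3 to -31.4 points. At Tapt1, Tmc8 and Dclk1 the KI LT-HSC level was above both Control stem cell libraries, and the KI ST-HSC level was nearer to them. These windows were chosen for a KI LT-HSC level far above that of KI ST-HSC, so this placing is partly set by the choice. In the window at the 8430423G03Rik start, another of the largest falls, Control LT-HSC was above KI LT-HSC.

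Few called windows joined into longer regions. In all, 15 runs of adjacent windows were called higher, 31 windows in all and at most 3 in a row, and 1 run was called lower. The run of 3 lay in Mn1, a transcriptional regulator known as a leukaemia oncogene, at chr5:111418001-111421000. Its 111 positions had a mean of 49.1% in KI LT-HSC and 64.5% in KI ST-HSC. Nfix, a transcription factor gene with a role in stem cell survival, had a run at chr8:84784001-84786000 that went from 42.7% to 70.7%. Runs in Gabbr1, a GABA receptor gene, and in Bahcc1, which encodes a chromatin reader, went from 18.2% to 46.0% and from 22.8% to 46.8%. The run that was lower lay in D430041D05Rik and went from 99.6% to 83.3%.

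Gene starts were read from 1000 bases before to 500 bases after a RefSeq start, with at least 5 positions and the same test and threshold. Of 10799 gene starts tested, 100 were called higher in KI ST-HSC (0.926%) and 28 lower (0.259%). Most starts were nearly free of methylation in LT-HSC, with a median of 2.67%. The median LT-HSC level was 22.9% at the starts that rose and 34.0% at those that fell. Starts called in either direction were poorer in CpG, with a median of 13 CpGs per 300 bases around the start for rises and 11 for falls, against 23 for all. Starts between 10% and 90% in LT-HSC had a median of 13 as well. The starts just past the 10 point threshold were Gm40847, Zfp108 and Hormad2, at 10.0 to 10.2 points, and those just short of it were Rtl6, Oxtr and Runx1, at 9.99, 9.98 and 9.93 points.

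The named gene starts were chosen as the windows were, for the 10 largest changes each way, so their sizes describe the choice. The start of 5730596B20Rik, a transcript inside the Hoxa cluster, had the largest rise, from 41.6% in KI LT-HSC to 92.2% in KI ST-HSC over 10 positions. Its level was 84.4% in KI MPP. Hoxa5, a homeobox transcription factor gene of blood and embryonic patterning, came next and is described with its cluster below. At Noxa1, which encodes an activator of an NADPH oxidase, the LT-HSC level was 20.7%, the ST-HSC level 52.8% and the MPP level 61.7%. Tbx6, a T-box factor of early mesoderm, was nearly unmethylated in LT-HSC at 3.04% and stood at 34.1% in ST-HSC and 37.4% in MPP. Zmynd8, a chromatin reader, had 41.4%, 71.0% and 76.9% in the same order. Nradd, a death-domain protein related to neurotrophin receptors, had 24.1%, 53.2% and 48.0%. At these 4 genes ST-HSC and MPP were nearer to each other than either was to LT-HSC. Dcdc2c, a doublecortin-domain gene, had 52.7%, 79.0% and 78.7%. Tubb4a had 37.2%, 75.5% and 66.4%. At Acot11 the MPP level, 29.3%, was about as far from LT-HSC (9.86%) as from ST-HSC (50.2%).

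The Control libraries did not show one pattern at these genes. At Zmynd8 the Control levels were 45.8% in LT-HSC and 70.8% in ST-HSC, close to the KI values. At Nradd they were 11.5% and 35.5%, a rise of 24.0 points from a lower level. At Akr1b8, by contrast, Control had 28.1% in LT-HSC and 24.1% in ST-HSC where KI had 24.4% and 53.8%. At Acot11 Control had 7.5% and 5%. Neither Akr1b8 nor Acot11 was called in Control, and whether the 2 genotypes differ there was not tested.

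**Figure D3:**
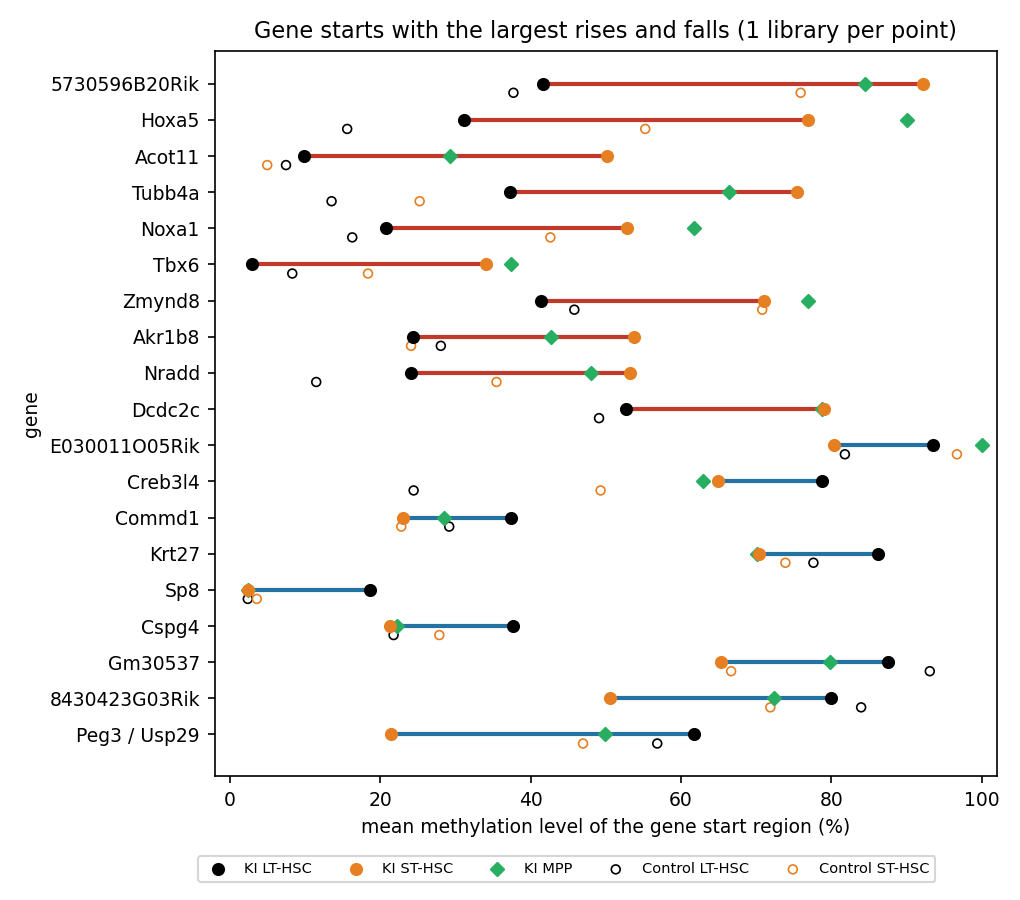
Mean methylation level (%) of the gene start regions with the largest rises (red lines) and falls (blue lines) between KI LT-HSC (black) and KI ST-HSC (orange), among those with at least 100 reads in each library and at least 80% of positions moving one way. Green diamonds are KI MPP and open circles Control LT-HSC and ST-HSC, and each symbol is 1 library. At Hoxa5, Noxa1, Tbx6 and Zmynd8 the KI MPP level lies beyond the KI ST-HSC level.

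The largest fall at a gene start was at an imprinted locus. Peg3, a zinc finger gene expressed from the paternal copy, and Usp29 share a start region, and the same 8 positions measured both. The mean over positions went from 61.8% in KI LT-HSC to 21.4% in KI ST-HSC, lower at 8 of 8 positions. Over reads the level went from 54.2% of 509 to 23.5% of 459. KI MPP had 49.96%. Control LT-HSC had 56.8% and Control ST-HSC 47.0%, so KI ST-HSC was the lowest of these 5 libraries. At an imprinted start 1 parental copy is methylated and the other is not, which gives a level near the middle when both are read equally. Zrsr1, an imprinted gene inside an intron of Commd1, moved up, from 25.8% to 46.8% over 19 positions, while the alternative start of Commd1 next to it went from 37.4% to 23.0% over 20 positions. In the list of 30 imprinted genes, 15 starts were measured, of which 1 was called higher and 2 lower, the last 2 being Peg3 and Usp29, against 0.926% and 0.259% of all starts. Along the same genes, 5 of 49 windows were called higher (10.2%) and 3 lower (6.12%), against 2.54% and 0.992% of all windows. Nnat (neuronatin) went from 31.6% to 68.0%, the Kcnq1ot1 region from 6.38% to 31.5%, Grb10 from 20.3% to 36.6%, Impact from 10.3% to 49.9% and Peg13 from 58.0% to 42.9%. Control LT-HSC and ST-HSC had 36.1% and 66.8% at Nnat, 32.4% and 20.2% at Kcnq1ot1 and 35.1% and 40.6% at Impact. At Peg13 they had 33.9% and 28.9%, and Grb10 had no Control LT-HSC value. KI MPP stood at 39.5% at Nnat, nearer to KI LT-HSC than to KI ST-HSC. Gnas had 1 window that was higher, 27.96% against 45.03%, and 1 that was lower, 58.2% against 43.4%. In Control the first had 31.6% and 44.7%, and the second 33.6% and 85.2%. The list as a whole had a median difference of 0.647 points at gene starts, against 0.675 over all starts. Its calls went both ways, which a median does not show.

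Among the other named falls, Sp8, a zinc finger factor of limb development, went from 18.7% to 2.50% over 17 positions. The call at Sp8 did not hold with at least 20 reads per position or on positions covered in all 6 libraries, where the difference was -4.42 points, nor with read weighting, at -9.43 points. Cspg4, the NG2 proteoglycan, went from 37.7% to 21.4%, and Krt27, a hair keratin, from 86.2% to 70.4%. Creb3l4, a CREB family factor, went from 78.7% to 64.9%. E030011O05Rik, 8430423G03Rik and Gm30537 differed by -13.1 to -29.4 points. With every position thinned to 10 reads, which leaves fewer reads per test, the calls at Sp8, Peg3 and Usp29 held. Those at Cspg4, Krt27, Creb3l4, E030011O05Rik, 8430423G03Rik, Gm30537 and Commd1 did not. Of the named rises, Noxa1, Tbx6, Zmynd8 and Nradd also lost the call when thinned.

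Rises were many in the Hoxa cluster. Hox genes encode homeobox factors whose order along the chromosome follows their order of use along the body, and several of the Hoxa group support self-renewal of blood stem cells. The stretch from the Hoxa2 start to the Hoxa13 start, with 5 kb on each side, held 703 positions, with a mean of 15.3% in KI LT-HSC and 24.6% in KI ST-HSC. Of its 34 windows 9 were called higher and 0 lower by the Fisher exact test, against 2.54% and 0.992% of all windows. Of its 703 positions, 42 were called higher and 0 lower, against 0.461% and 0.189% of all positions. At the Hoxa5 start (chr6:52204088-52205587, minus strand), 22 positions had levels from 4.35% to 100% in LT-HSC with a median of 23.3%, and from 45.5% to 96.9% in ST-HSC with a median of 76.1%. The mean over positions went from 31.1% to 76.9%, higher at 21 of 22 positions, and the level over reads from 25% of 844 to 75.6% of 853 (adjusted p = 9.75e-97, two-sided Fisher exact test of the reads). KI MPP stood at 90.01%. Over the 1 kb window at Hoxa5 the difference was 52.2 points on the forward and 54.2 points on the reverse strand, so both strands gave the same size. In Control the Hoxa5 start was at 15.6% in LT-HSC over 22 positions and 55.2% in ST-HSC over 17, a rise of 35.0 points on shared positions, and it was called higher there too.

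The rises were placed on the Hoxa2 to Hoxa6 side. The window at the Hoxa2 start went from 9.04% to 23.2%, that in Hoxaas2 from 66.9% to 97.1%, that at chr6:52175001-52176000 in the long form of Hoxa3 from 34.1% to 69.2% and that at 5730596B20Rik from 41.6% to 92.2%. Both windows at the Hoxa6 start were higher, 19.3% against 33.8% and 14.5% against 40.5%. A window of 83 positions at Hoxa4 had 19.3% and 28.3%, a difference of 8.96 points that stayed short of the threshold. Beyond Hoxa6, the windows at Hoxa7, Hoxa9 and Hoxa10 were under 11% in both libraries, and the 1 call was a rise of 10.7 points at Hoxa11os. The start region of Hoxa9 held 1 measured position and was not tested. In Control, the Hoxa2 window (6.23% and 6.79%) and the Hoxa6 window with more positions (12.1% and 11.3%) were nearly level between LT-HSC and ST-HSC, whereas the Hoxa5 and 5730596B20Rik windows were higher in ST-HSC.

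**Figure D4:**
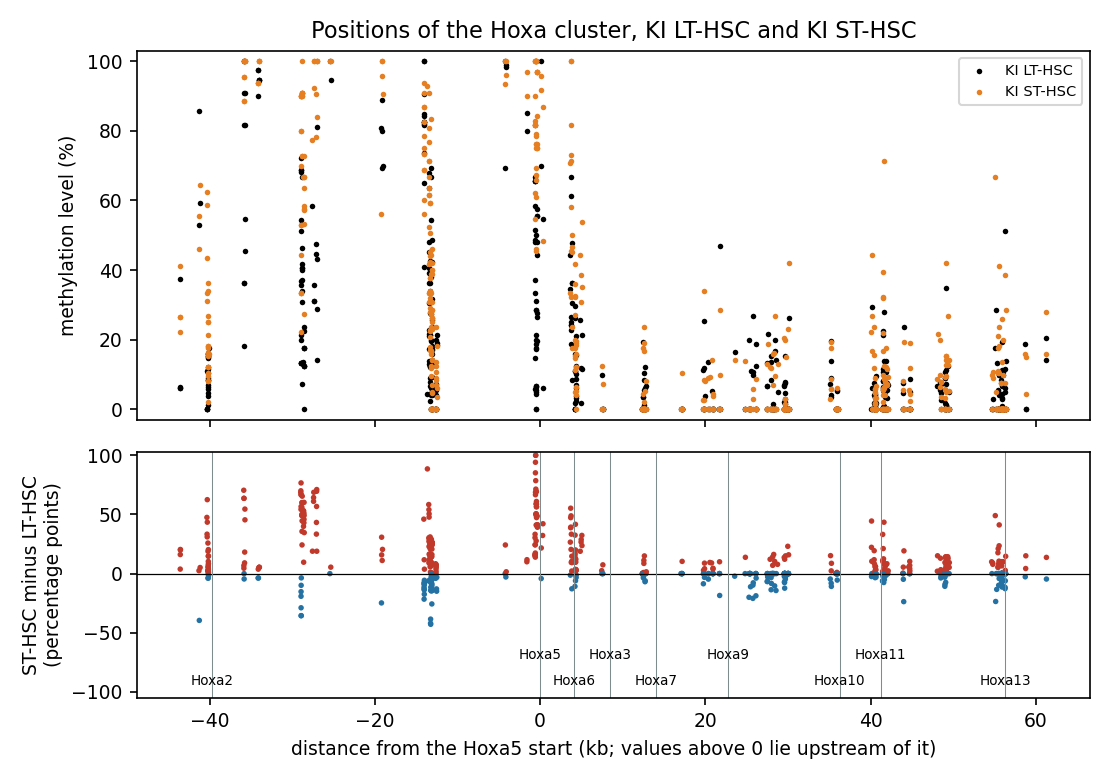
Measured positions of the Hoxa cluster by distance from the Hoxa5 start in kb, with methylation levels (%) in KI LT-HSC (black) and KI ST-HSC (orange) above, and the ST-HSC minus LT-HSC difference (percentage points) below, red where higher and blue where lower. Grey lines mark gene starts, that of Hoxa3 being an alternative start upstream of Hoxa6. Differences of over 50 points lie only in the part from the Hoxa2 gene to the Hoxa6 start.

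Of the 20 genes in the list of Hoxa and Hoxb genes used here, 6 had a measured start, of which 2 were called higher, Hoxa5 and Hoxa6, and 0 lower (Fisher exact test, against 0.926% of all starts). Their median difference was 5.21 points against 0.675 over all starts. Along the genes, 12 of 58 windows were called higher (20.7%, against 2.54% of all windows). In Hoxb, 3 windows in Hoxb3, the second of which also overlaps Hoxb4, went from 7.99% to 23.1%, from 2.87% to 13.1% and from 71.1% to 88.7%. The list of Hoxc and Hoxd genes had 0 of 8 starts called and differences of 0.172 to 6.18 points, and 1 of 53 windows called, in Hoxc6 (16.9% against 33.0%). The developmental homeobox, PAX and SOX genes outside Hox had 1 of 40 starts called. This was Otx2, at 14.6% and 25.4%, which was not called with the strands of a CpG summed, at 9.25 points. Along these genes 9 of 308 windows were higher and 2 lower, shares of 2.92% and 0.649% that are near those of all windows.

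Most regulators of stem cells had low methylation at their starts. The 16 measured starts of the stem cell list had LT-HSC levels of at most 6.48%, and 0 were called by the Fisher exact test. Runx1, a master regulator of blood formation, came nearest. Its 52 positions had a mean of 6.48% in LT-HSC and 16.4% in ST-HSC, a difference of 9.93 points just short of the threshold (adjusted p = 2.84e-25, two-sided Fisher exact test of the reads). With read weighting the Runx1 difference was 11.9 points, past the threshold. Meis1, a cofactor of Hox proteins, was at 1.87% and 2.73%, and Gata2 at 3.13% and 3.55%. Of 105 windows along the stem cell genes 5 were higher (4.76%, against 2.54% of all windows) and 0 lower, a share not far from that of all windows. A window in Msi2, an RNA-binding protein of stem cells, went from 40.9% in LT-HSC to 75.5% in ST-HSC and 86.6% in KI MPP. Prdm16, a regulator of stem cell maintenance, went from 8.59% to 35.8%, with 64.0% in MPP. Gfi1, a repressor that limits stem cell cycling, went from 34.0% to 47.3%, with 72.4% in MPP over a window of 32 positions. A window in Gata2, a factor of stem cell survival, went from 1.957% to 13.97%, and one in Vwf, the gene of von Willebrand factor that marks platelet-biased stem cells, from 48.7% to 76.5%. Control LT-HSC and ST-HSC had 16.8% and 32.7% in the Msi2 window, 10.3% and 16.2% in that of Prdm16, and 7.18% and 24.9% in that of Gfi1. In the Gata2 window they had 4.27% and 5.75%. In that of Vwf the Control level was lower in ST-HSC, at 65.1% and 56.5%.

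Of the erythroid and megakaryocyte genes, 0 of 5 starts were called, and 3 of 35 windows were higher, all in Zfpm1, the FOG1 partner of GATA factors. These 3 windows went from 22.0% to 39.3%, from 8.62% to 21.3% and from 0.337% to 15.2%, and KI MPP had 55.2%, 45.1% and 22.0%. The myeloid list had 0 of 6 starts called and 1 of 25 windows, the one in Gfi1. The lymphoid list had 0 of 12 starts and 0 of 64 windows called. At the lymphoid starts the differences ran from -0.901 to 2.58 points, the highest being Flt3, a receptor of lymphoid-primed progenitors, at 5.77% and 8.35%. For the polycomb and trithorax subunits 0 of 17 starts and 0 of 54 windows were called. The same held for germline genes, with 0 of 13 starts and 0 of 20 windows, most of them full in both libraries at a median of 96.5% in LT-HSC. Interferon and innate immune genes had 0 of 14 starts and 0 of 29 windows called. All these counts use the Fisher exact test with the threshold of 10 points, and the background shares are 0.926% and 0.259% of starts and 2.54% and 0.992% of windows.

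The enzymes of the pathway itself had low methylation at their starts. Idh1, the gene that carries the knock-in allele, was at 1.59% in LT-HSC and 2.79% in ST-HSC over 15 positions, and the tables do not tell its alleles apart. Idh2, its mitochondrial relative, was at 3.63% and 1.97%. Tet1, Tet2 and Tet3 differed by 0.197, 0.611 and 1.48 points, and the methyltransferases Dnmt1, Dnmt3a and Dnmt3b by 0.524, 0.0960 and 0.199 points, all from levels under 5%. Of 13 measured starts of this list 0 were called. Along the genes, a window in Kdm6b, a histone demethylase, went from 43.7% to 63.1%. A window that overlaps start regions of Kdm2b, another demethylase, and of A930024E05Rik went from 16.1% to 0.980% and was called lower. Tumour suppressors and WNT inhibitors had 0 of 17 starts called, with 5 windows of 86 higher (5.81%) and 2 lower (2.33%), against 2.54% and 0.992% of all windows. Of these, 3 higher windows were in Gata4, and Cdh1, which encodes E-cadherin, had a window in each direction. The list of cell adhesion and niche receptor genes had 1 of 35 windows called, in Itgb3, and that of endothelial and stromal markers 1 of 31, in Kdr. Neither list had a called start, with 7 and 5 starts measured.

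The Control mice, which share no library with the KI pair, gave the same step without the knock-in allele. There, 736 of 36889 windows were called higher in ST-HSC (2%) and 1093 lower (2.96%). At gene starts 70 were higher (0.644%) and 99 lower (0.911%). Rises outnumbered falls in KI and falls outnumbered rises in Control. The KI step was read across lanes 7 and 3 and the Control step within lane 6, so genotype and lane cannot be told apart here. Of 28555 windows tested in both genotypes, 120 were called higher in both, which is 16.8% of the 716 KI rises and 25.8% of the 466 Control rises. Control rises made up 1.63% of all these windows. Called lower in both were 48 windows, 18.8% of the KI falls and 7.396% of the Control falls, which made up 2.27% of all. Called lower in Control were 48 KI rises, 6.70% of them, against 2.27% of all these windows. Called higher in Control were 16 KI falls, 6.27% of them, against 1.63% of all. Calls in opposite directions were thus also above the shares over all windows. At gene starts 16 were called higher in both genotypes, 17.6% of the KI rises, against 0.494% of all starts called higher in Control. Called lower in both were 4 starts, 14.8% of the KI falls, against 0.760%. In opposite directions went 7 KI rises and 1 KI fall at gene starts. The 5730596B20Rik, Hoxa5, Tbx6, Zmynd8 and Nradd starts were higher in both, and 8430423G03Rik and Gm30537 were lower in both.

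Where KI windows were called higher, the Control difference was at least 10 points up in 22.4% and at least 10 points down in 9.90%, with a median of 2.98 points over 687 windows. Where they were called lower, the Control difference was at least 10 points up in 7.38% and down in 24.6%, with a median of -2.46 points over 244 windows. Among windows with a Control mean of 10% to 90%, where most KI calls lay, 13.04% went at least 10 points up and 14.8% went down in Control. Over all windows measured in both genotypes these shares were 2.35% and 2.98%. Neither is a matched background, since 112 KI rises and 25 KI falls had a Control mean under 10%, and 28 and 65 one over 90%. By the medians and shares within the KI calls, the Control step leaned the way of the KI calls. It did so by a much smaller amount than in KI, where the size was fixed by the call.

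**Figure D5:**
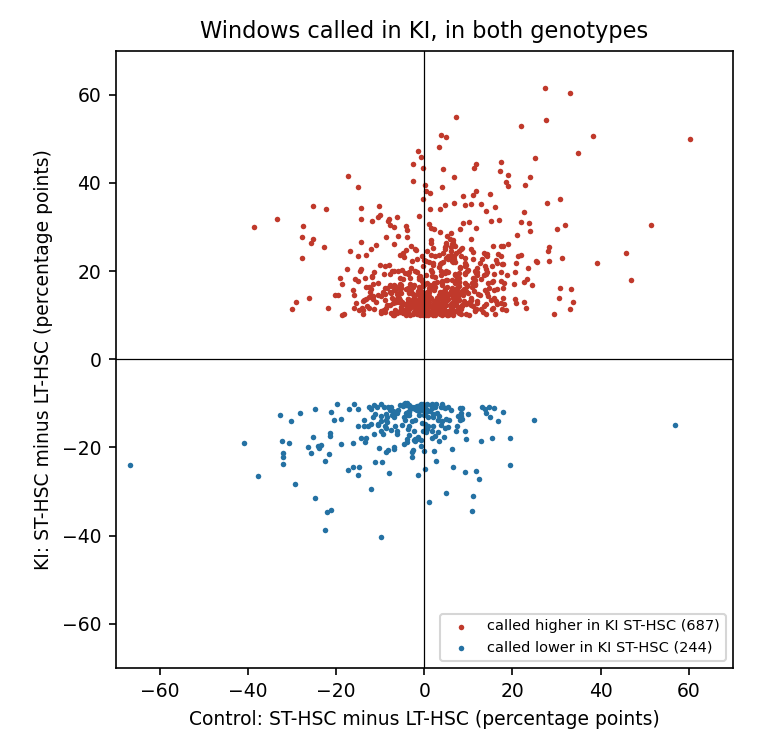
Difference between ST-HSC and LT-HSC (percentage points) in Control (x axis) and in KI (y axis) for the 1 kb windows called in KI and measured in both genotypes, 687 called higher (red) and 244 called lower (blue). The band between -10 and 10 on the y axis is empty because windows were chosen by their KI difference. Most points lie within 20 points of 0 on the x axis, and 62.2% of the red and 34.4% of the blue points lie right of 0.

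Levels in the other libraries place the KI windows in the order of differentiation. At the 586 higher windows with values in all 6 libraries, the median level was 29.0% in KI LT-HSC and 51.5% in KI ST-HSC, as chosen, and 51.5% in KI MPP. The Control libraries had medians of 27.3% (LT-HSC), 32.5% (ST-HSC) and 38.6% (MPP) there. KI MPP, a library that took no part in the choice, had the same median as KI ST-HSC. At the 190 lower windows the KI medians were 87.3%, 69.0% and 75.1% in LT-HSC, ST-HSC and MPP, and the Control medians were 75.7%, 72.1% and 71.5%. Control LT-HSC was close to KI LT-HSC at the higher windows and below it at the lower ones. Both sets were chosen by their KI LT-HSC and KI ST-HSC levels, so these distances are partly set by the choice. The quartiles were wide, from 12.8% to 52.7% for KI LT-HSC and from 26.8% to 76.2% for KI MPP at the higher windows.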

How the data were processed

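Enhanced reduced representation bisulfite sequencing reads CpG-rich restriction fragments of bisulfite-treated DNA. Per the labels' protocols, 10 ng of DNA and fragments of 150 to 400 bp were used. Per the submitters' processing notes, the tools were Bismark 0.10.0, SAMtools 1.0 and methylKit 0.9.1 with mm10. For their settings, for duplicate removal and for conversion, nothing is given in the sources used here, so reads may be copies of 1 molecule. Coverage was deposited as a read count for every position, at least 10 in every library. The deposited percent of C and of T, per the file headers, gave whole methylated reads at 100% of positions within 0.01%.

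Levels were averaged over positions with strands kept apart. Summed reads were compared by the two-sided Fisher exact test with Benjamini-Hochberg adjustment over all features, a script tested on simulated data (Python 3.11.15, scipy 1.17.1, numba 0.67.0). Windows and gene starts were called at an adjusted p under 0.01 and 10 points, single positions at 25 points. Where a gene had several RefSeq starts, the one with most positions was used. RefSeq starts were given for 25748 genes and for none on chromosome 18. Genes and windows were named by size of change, as the report states, with list members called at their start and fixed genes of the pathway. The comparison, the lists and the rules were chosen with earlier results of these data known. Counting windows along list genes was added after the data were seen. A gene of the Hoxa and Hoxb list is not reported here, and the counts of that list leave it out.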

Additional observations from a re-analysis of the deposited data

Results flagged for a closer look

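Some regions moved in opposite directions in the 2 genotypes. Each direction rests on 1 library per cell type, and the difference between genotypes was not tested. Zrsr1, the imprinted gene inside Commd1, was 20.99 points higher in ST-HSC than in LT-HSC in KI and differed by -15.2 points in Control. The start of Creb3l4 differed by -13.8 points in KI and by 24.9 points in Control. Its 4 levels were 78.7% and 64.9% in KI LT-HSC and ST-HSC, against 24.5% and 49.3% in Control. A window in Pdpn, the gene of podoplanin, differed by -31.0 points in KI and by 11.0 points in Control. Its KI levels were 74.1% and 43.1%, and its Control levels 21.8% and 32.7%. In all, 48 windows were called higher in KI ST-HSC and lower in Control ST-HSC, and 16 windows were called the other way round. The 48 were 6.70% of the KI rises, where 2.27% of all windows were called lower in Control. The 16 were 6.27% of the KI falls, where 1.63% of all windows were called higher in Control.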

How the results depend on the processing

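No paired analysis was possible because each group had 1 library, and for the same reason no library could be left out. The mean difference of 0.772 points stayed positive in all alternatives. It was 0.805 with at least 20 reads, 0.759 with every position thinned to 10 reads and 0.754 with strands summed. On positions in all 6 libraries it was 0.807. With each library weighted by its own reads it was 5.26, a value that also holds the unlike spread of reads. Windows called higher and lower numbered 492 and 151 with at least 20 reads, 164 and 23 after thinning, 254 and 27 with at least 10 positions, and 255 and 62 at 20 points. Gene starts called higher and lower numbered 29 and 8 after thinning, 48 and 5 with at least 10 positions, and 33 and 6 at 20 points, and 160 were called higher with read weighting. Single positions called higher and lower numbered 1760 and 779 at 40 points, and 0 and 0 after thinning, where 10 reads a side limit what can be called. Of the 164 and 23 windows called after thinning, 153 and 21 were among the original calls. Thinning leaves fewer reads per test. Rises outnumbered falls in all settings that gave calls. Over the named genes and windows, 345 values kept direction and call, 30 lost the call and 9 changed sign or came to 0. These counts leave out settings under which a region could not be tested, such as at least 20 reads for the Rad51b window. The 345 also include starts that were never called and stayed so. The 9 are starts never called, namely Dnmt3a at -0.0424 points (read weighting), Dnmt3b at -0.0521 (strands summed), Kit at -2 (thinned) and -0.731 (read weighting), Meis1 at 0 (thinned), Tet1 at -0.222 (20 reads), -0.168 (all 6 libraries) and -0.418 (read weighting), and Tet2 at -0.123 (thinned).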
